A study of Mus musculus with 13 samples.

Results

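A set of genes that encode secreted inhibitors of Wnt signalling were followed through the cell types of developing mouse skin. They were chosen by symbol from the gene table of the series and comprise Dkk1, Dkk2, Dkk3, Dkk4, Dkkl1, Sfrp1, Sfrp2, Sfrp4, Wif1 and Frzb, or 10 of the 27998 gene identifiers counted. All 10 were detected, with 278626 transcripts in total and between 1902 (Sfrp4) and 127153 (Sfrp2) transcripts a gene. The study made droplet single-cell RNA libraries from C57BL/6 mice that were wild type (WT) or carried no functional Grhl3, a transcription factor of epidermal differentiation (Grhl3-/-). Whole back skin was taken on embryonic days E14.5 and E16.5, and epidermis alone at birth (P0), with 2 libraries for each genotype and age. The deletion is germline, so that every cell of a Grhl3-/- animal carries it, and the study's methods describe the WT animals as littermates. One further P0 WT library, made first and with an earlier reagent version, has no replicate and was kept out of all tests. The question behind the comparisons was whether the loss of GRHL3, an epidermal factor, goes with a change in the signals that cells secrete to restrain Wnt.

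The 13 libraries held 5058 to 9157 cells each after filtering, 86507 in all, and 49245953 to 107038146 transcript molecules (unique molecular identifiers, UMIs). Median depth was 7448 to 9976 UMIs a cell, and no pair of libraries shared more than 1.57% of the barcodes of the smaller one. Cell types were rebuilt by clustering without the 10 genes and are named "-like" because no annotation by the study was used. Clusters were named from fixed markers, such as Krt14 and Krt5 for basal interfollicular epidermis (IFE), Krt1 and Krt10 for differentiated IFE and Shh and Lhx2 for hair follicle. Others were Lum and Col1a1 for fibroblasts and Sox2 or Foxd1 for the dermal condensate or papilla. That a class carries its markers is therefore no separate check of its name. Clusters that stayed unnamed held 10.4% of cells. The methods state that each group held 1 male and 1 female, but Xist was above 100 CPM (transcripts of a gene per 1000000 counted) in 4 libraries only. These were E14.5 WT replicate 2, both E16.5 WT replicates and E16.5 Grhl3-/- replicate 2, and sex therefore differed between genotypes at both embryonic ages and did not vary among the P0 libraries. Grhl3 itself was still counted in differentiated IFE-like cells of the Grhl3-/- libraries, at 58.9, 13.03 and 11.6 CPM at E14.5, E16.5 and P0 against 95.3, 39.1 and 27.4 CPM in WT (means of 2 libraries). Tags at the 3' end can lie outside the deleted part, so that these values do not check the genotype.

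Wnt ligands are secreted lipid-modified proteins that bind Frizzled receptors and the co-receptors LRP5 and LRP6, which stabilises β-catenin and switches on target genes with TCF and LEF factors. In embryonic skin this pathway starts hair follicle placodes and the dermal condensates beneath them, and it keeps basal epidermal cells dividing. Secreted inhibitors limit its reach. Dickkopf proteins such as DKK1, DKK2 and DKK4 bind LRP co-receptors, whereas the secreted Frizzled-related proteins (SFRP1, SFRP2, SFRP4 and FRZB) and WIF1 bind Wnt ligands themselves. DKK3 and DKKL1 are relatives whose action on Wnt is less clear, and DKKL1 is best known from the testis.

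The genes lie on 7 chromosomes of the mouse build GRCm38. Dkk1 occupies chr19:30545863-30549665 on the minus strand, Dkk2 chr3:132085292-132180304 on the plus strand and Dkk3 chr7:112116017-112159057 on the minus strand. Dkk4 lies at chr8:22624043-22627547 (plus) and Dkkl1 at chr7:45207519-45212147 (minus). Of the Frizzled-related genes, Sfrp1 lies at chr8:23411502-23449632 (plus), Sfrp2 at chr3:83766321-83774316 (plus), Sfrp4 at chr13:19623104-19632994 (plus) and Frzb at chr2:80411970-80447625 (minus). Wif1 occupies chr10:121033960-121100650 on the plus strand. Promoter windows from RefSeq (GRCm38.p6, 250 bases before to 50 after the start) were found for 6 of the 10 genes, namely Dkk1, Dkk2, Dkkl1, Sfrp2, Wif1 and Frzb. A few are shown, each 5′ to 3′ on the gene's own strand: Dkk1 and Wif1, whose levels followed each other across cell types, and Dkkl1, the member found mainly in the differentiated epidermis. Capitals mark matches, on either strand, to a GRHL motif (AACCNGTT), a TCF/LEF motif (CTTTGAA or CTTTGAT) or a TATA box (TATAAA).
Dkk1: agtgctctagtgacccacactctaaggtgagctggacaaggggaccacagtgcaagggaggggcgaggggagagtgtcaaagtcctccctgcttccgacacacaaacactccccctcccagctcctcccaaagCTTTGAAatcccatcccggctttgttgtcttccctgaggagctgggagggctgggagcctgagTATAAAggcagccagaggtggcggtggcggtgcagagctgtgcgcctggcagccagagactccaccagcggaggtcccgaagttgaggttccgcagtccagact
Wif1: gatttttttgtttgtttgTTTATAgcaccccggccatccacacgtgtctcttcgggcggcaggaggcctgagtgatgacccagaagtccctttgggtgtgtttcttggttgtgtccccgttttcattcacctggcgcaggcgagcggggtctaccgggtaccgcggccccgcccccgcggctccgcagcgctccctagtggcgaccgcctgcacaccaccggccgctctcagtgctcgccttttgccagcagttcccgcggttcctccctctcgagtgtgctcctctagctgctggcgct
Dkkl1: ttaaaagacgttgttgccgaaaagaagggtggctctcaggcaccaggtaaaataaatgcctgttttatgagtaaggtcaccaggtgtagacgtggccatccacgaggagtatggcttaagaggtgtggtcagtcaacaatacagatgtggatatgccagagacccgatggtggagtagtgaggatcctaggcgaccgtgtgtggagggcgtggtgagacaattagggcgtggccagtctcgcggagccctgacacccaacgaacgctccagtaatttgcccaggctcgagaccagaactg
The Dkk1 window is chr19:30549447-30549746 (minus), that of Wif1 is chr10:121033754-121034053 (plus) and that of Dkkl1 is chr7:45211834-45212133 (minus). Windows and match positions count from the RefSeq start, which differs from the start of the gene span given above, taken from GENCODE M21. The Dkkl1 window lies wholly inside its gene span, so that bases before the start of that span were not searched. The Dkk1 and Wif1 windows reach across the starts of theirs. Dkk1 held a TCF/LEF match that began at position -117 and a TATA box at -54 from the start, Wif1 held a TATA box at -232 that reads on the opposite strand, and Dkkl1 held no match. Among 32851 promoters of the same length, 2.09% held the GRHL letters, 8.65% the TCF/LEF letters and 13.6% the TATA letters. A match describes the letters only.

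Some inhibitors shared the named class of their highest WT level and others did not. Dkk1, Wif1 and Frzb peaked in dermal condensate or papilla-like cells, Dkk2 and Sfrp1 in Schwann-like and Dkk3 in melanocyte-like cells. Dkk4 peaked in hair follicle-like, Dkkl1 in differentiated IFE-like and Sfrp2 in fibroblast-like cells. Dkk1 kept its highest class in 2 of 3 other clusterings, and Wif1 and Frzb kept theirs in 3 of 3. Levels are given as CPM of a class, that is, transcripts of the gene per 1000000 transcripts of all cells of that class in a library, as mean ± SD of 2 WT libraries. Dkk1, which blocks LRP co-receptors, was highest in dermal condensate or papilla-like cells at E14.5 (52.0 ± 4.51 CPM) and in fibroblast-like cells at E16.5 (43.3 ± 6.03 CPM). It was a dermal transcript at both embryonic ages: fibroblast-like cells gave 86.6% of its UMIs at E14.5, where they were 65.6% of cells, and 89.5% at E16.5. In P0 WT epidermis Dkk1 was counted once. Dkk2 was highest in Schwann-like cells, the glia of skin nerves, at 154 ± 9.58 CPM at E14.5 and 124 ± 33.2 CPM at E16.5. Fibroblast-like cells, with 72.1 ± 14.7 and 31.0 ± 1.97 CPM, still gave 89.3% and 79.3% of Dkk2 UMIs because they were the most numerous. Dkk3 was highest in melanocyte-like cells at every age, at 52.1 ± 6.03, 76.5 ± 9.38 and 90.7 ± 20.3 CPM at E14.5, E16.5 and P0. At P0, melanocyte-like cells were 15.4% of WT cells and gave 40.3% of Dkk3 UMIs.

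**Figure D1:**
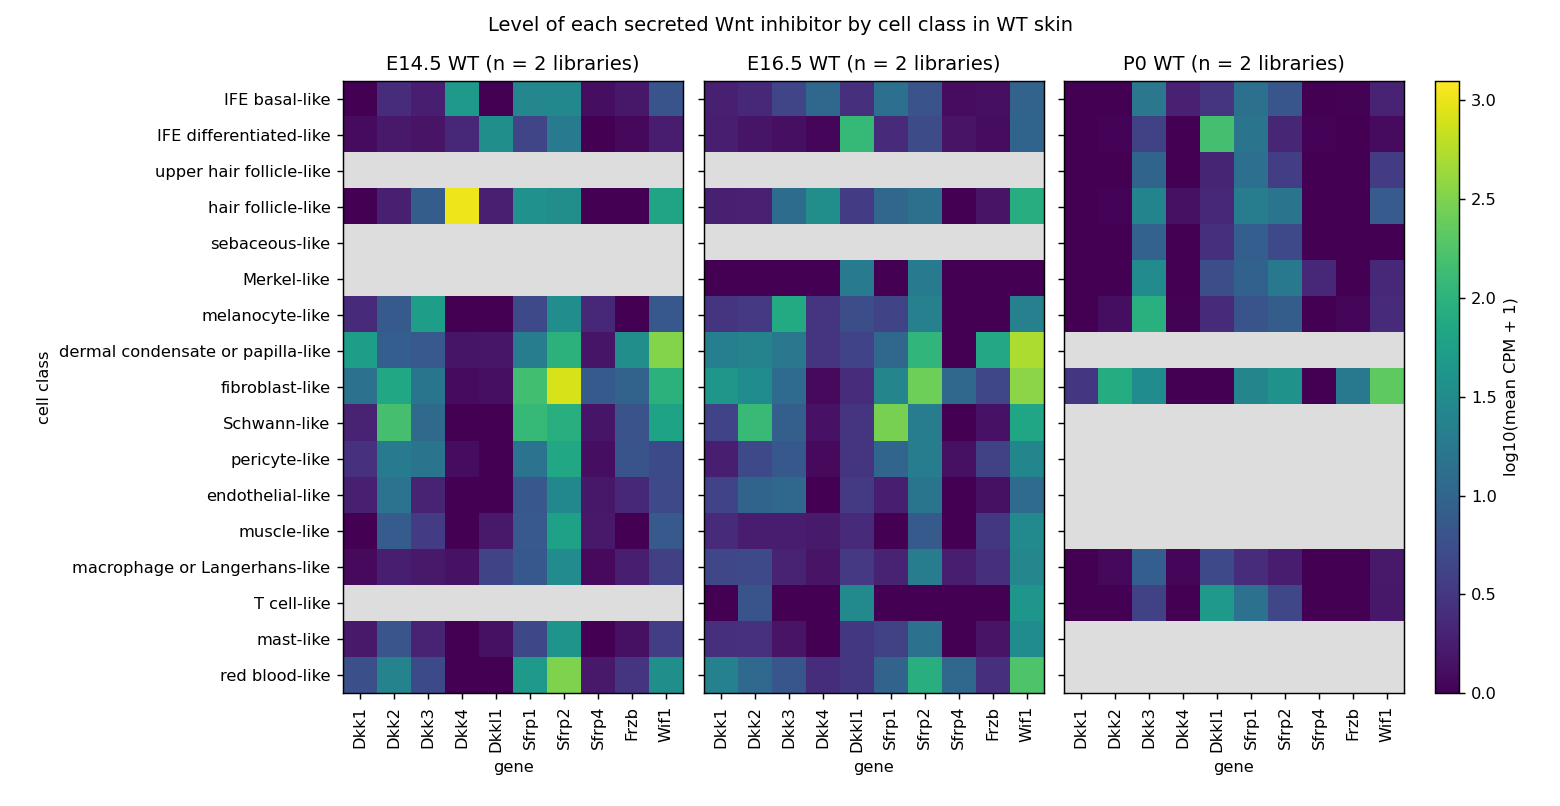
Mean level of each gene (columns) in each cell class (rows) of WT skin at E14.5, E16.5 and P0, 2 libraries each, coloured by log10(mean CPM + 1); grey marks classes with too few cells. Dkk4 stands out in hair follicle-like cells at E14.5 (1059 CPM), Sfrp2 in fibroblast-like cells (817 CPM) and Dkkl1 in differentiated IFE-like cells at each age.

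The remaining Dickkopf genes were highest in epithelial classes. Dkk4, a target of Wnt and ectodysplasin signalling in hair placodes, reached 1059 ± 251 CPM in hair follicle-like cells at E14.5. That class held 0.753% of WT cells and gave 76.1% of all Dkk4 UMIs, and basal IFE-like cells, at 45.2 ± 13.3 CPM, gave another 17.9%. Hair follicle-like cells stayed the highest class for Dkk4 in 1 of 3 other clusterings, and without integration they held 146 CPM at E14.5. Dkkl1 was highest in differentiated IFE-like cells, at 33.5 ± 5.67, 118 ± 34.1 and 154 ± 9.46 CPM at E14.5, E16.5 and P0. These cells were 3.09%, 3.14% and 9.69% of WT cells and gave 75.7%, 78.8% and 90.9% of Dkkl1 UMIs. The next named class in the replicated WT libraries was T cell-like cells, at 28.9 ± 10.2 CPM at E16.5 and 44.9 ± 1.21 CPM at P0. With every cell thinned to 2000 UMIs, Dkkl1 was seen in 6.09%, 14.03% and 12.4% of differentiated IFE-like cells (20.7%, 31.3% and 31.3% before thinning), whose median depth was 10563 to 16662.5 UMIs. The same thinned share was 0% and 0.682% in mast-like cells at E14.5 and E16.5, which should lack the gene and had median depths of 3949 to 11771 UMIs. In T cell-like cells it was 10.5% and 9.09% at E16.5 (19 and 22 cells) and 6.56% and 8.42% at P0 (61 and 95 cells, WT replicates 1 and 2). The first P0 library had 11.3% in T cell-like and 10% in differentiated IFE-like cells.

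Frizzled-related proteins and WIF1 came mostly from the dermis. Sfrp2 had the largest number of transcripts of the 10 genes and stood at 817 ± 157 CPM in fibroblast-like cells at E14.5, which gave 95.3% of its UMIs. Free RNA in droplets can give such an abundant transcript to other cells, and mast-like cells carried 39.7 ± 0.0291 CPM of Sfrp2 at E14.5 and 13.5 ± 3.98 CPM at E16.5. Basal IFE-like cells, at 27.1 ± 8.32 and 5.15 ± 0.67 CPM, lay below those mast-like levels. Sfrp1 was shared at E14.5 by fibroblast-like (142 ± 29.0 CPM) and Schwann-like cells (118 ± 13.4 CPM), whose ranges overlapped, and at E16.5 by far highest in Schwann-like cells (287 ± 2.02 CPM). At P0 it was highest within the follicle in cells led by Tbx1 and Sox9, at 185 and 175 CPM in WT and 230 and 167 CPM in Grhl3-/- libraries. Sfrp4 was the rarest member and was a fibroblast transcript, at 6.62 ± 3.27 CPM at E14.5 and 9.72 ± 2.05 CPM at E16.5, with 3 UMIs in P0 WT. The red blood-like class at E16.5 had 9.96 ± 10.6 CPM of Sfrp4, within the spread of the fibroblast value. Wif1 was highest in dermal condensate or papilla-like cells (336 ± 38.3 CPM at E14.5, 519 ± 9.26 CPM at E16.5), followed by fibroblast-like cells (98.2 ± 7.53 and 367 ± 12.9 CPM) and hair follicle-like cells (64.4 ± 18.6 and 83.6 ± 6.56 CPM). Red blood-like cells carried 174 ± 2.25 CPM of Wif1 at E16.5, above the hair follicle-like level, at a median depth of 11053.5 and 11789 UMIs a cell. Whether free RNA entered these values was not tested. Among the named classes Frzb was highest in the condensate, at 33.3 ± 0.59 CPM at E14.5 and 74.0 ± 6.25 CPM at E16.5. Its thinned share at E14.5 was 4.74% and 0.946% in unnamed cells, against 3.45% and 2.24% in condensate or papilla-like cells (WT replicates 1 and 2). At E14.5 condensate or papilla-like cells gave 7.6% of Frzb UMIs in WT and fibroblast-like cells 65.1%. In E16.5 WT skin, condensate or papilla-like cells were 3.51% of cells and gave 44.4% of Frzb UMIs, beside 43.0% from fibroblast-like cells.

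Within the fibroblast-like class the levels of the inhibitors differed between clusters. The sets of clusters below were drawn after their values were seen and carry no test. At E14.5, 4 clusters led by Lum, Crabp1 and Vcam1 had 182 to 233 CPM of Wif1 and 21.1 to 36.7 CPM of Dkk1 in WT, with 62.9 to 153 CPM of Sfrp2. Another 5 clusters with leading genes such as Agtr2, Mfap5 or C1qtnf3 had the reverse, 865 to 1732 CPM of Sfrp2, 104 to 153 CPM of Dkk2 and 201 to 399 CPM of Sfrp1, beside 5.33 to 44.3 CPM of Wif1. The remaining clusters, one led by Agtr2 and Col1a1 and one by Mfap5 and Agtr2, had 533 and 592 CPM of Sfrp2 with 103 and 5.81 CPM of Wif1. Among the fibroblast-like clusters, Frzb was highest in the one led by C1qtnf3, Mfap4 and Tnmd, the last a gene of tendon cells, at 43.1 CPM. At E16.5 the cluster led by Twist2 and Wisp1 had the highest Dkk1 (147 CPM) and Wif1 (768 CPM) of all dermal clusters with the lowest Sfrp2 (36.3 CPM), and clusters led by C1qtnf3 or Mfap5 had 18.3 to 79.8 CPM of Sfrp4, 60.6 to 110 CPM of Sfrp1 and 54.2 to 105 CPM of Dkk2 but 21.9 to 23.0 CPM of Wif1. Those clusters had 159 to 480 CPM of Sfrp2 and 2.35 to 5.15 CPM of Dkk1. The highest Sfrp2 at E16.5, 597 CPM, was in the cluster led by Agtr2 and Dpt, with 96.9 CPM of Wif1 and 7.43 CPM of Dkk1. The other 7 fibroblast-like clusters, led by Lum, Twist2 or Col1a1, had 70.4 to 358 CPM of Sfrp2, 229 to 697 CPM of Wif1 and 12.98 to 96.9 CPM of Dkk1. Few dermal cells were left in the P0 preparations, 14 to 71 fibroblast-like cells a library. These had 318 and 113 CPM of Wif1 in WT and 476 and 603 CPM in Grhl3-/- libraries, which were not tested against each other.

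**Figure D2:**
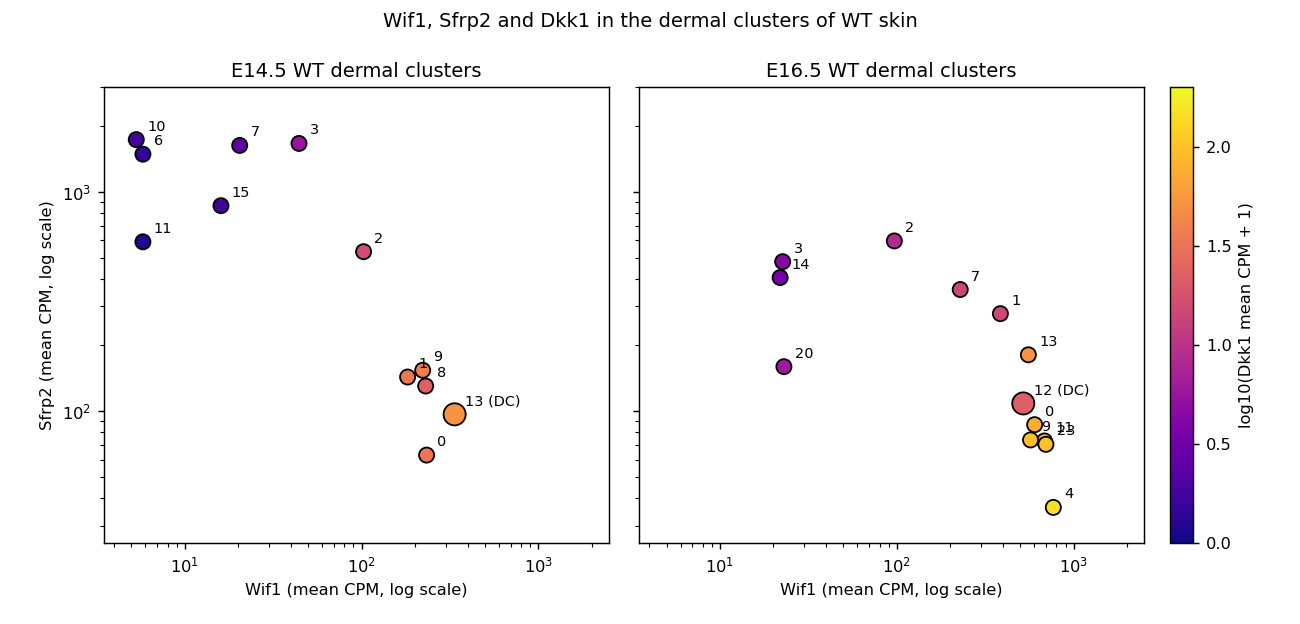
Wif1 (x axis, CPM, log scale) against Sfrp2 (y axis, CPM, log scale) in each dermal cluster of WT skin, means of 2 libraries, with Dkk1 as colour; numbers name clusters and the larger point marked DC is the condensate or papilla-like cluster. The 4 fibroblast-like clusters with 182 to 233 CPM of Wif1 at E14.5 had 62.9 to 153 CPM of Sfrp2, and the brightest Dkk1 point at E16.5 (147 CPM) lay at the lowest Sfrp2.

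For each inhibitor the genes of most similar pattern were sought among 8428 genes over 137 sums of a class in a library (17 classes), with Pearson's r of log levels as a description. Classes of one library share its depth and preparation. Dkk1 was closest to Wisp1, a Wnt-induced secreted protein gene (r = 0.91), then Egfl6 and Tmem132c. Wif1 was closest to a, the agouti gene of coat colour (r = 0.86), then Mfap2 and Cacna1g. The nearest genes to Frzb were Edn3, Inhba and Bmp3 (r = 0.90 for Edn3), and to Sfrp2 were Osr1, Osr2 and Vcam1 (r = 0.93 for Osr1). Dkk2 went with Prss12, Gulp1 and Gfra1 (0.85 for Prss12), Sfrp1 with Tenm3, Sema3c and Efna5 (0.84 for Tenm3), and Sfrp4 with Cpz, Clec3b and Mfap5 (0.74 for Cpz). Dkk3 followed the melanocyte genes Trpm1 and Pmel and also Olfm1 (0.84 for Trpm1). Of the members highest in epithelial classes, Dkkl1 was closest to Nccrp1 (0.80), one of the genes used to name differentiated IFE, then Gm94 and Clic3. Dkk4 was closest to Kremen2, which encodes a Dickkopf receptor (0.71), then Pdgfc and Etv4. Between members, the closest pairs were Dkk1 with Wif1 (0.83), Dkk2 with Sfrp1 (0.77) and Wif1 with Frzb (0.70).

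The dermal levels of the inhibitors differed between E14.5 and E16.5. Of the WT libraries of these ages, Xist was above 100 CPM in E14.5 replicate 2 and in both E16.5 replicates. The study used littermates, so that embryos of different ages came from different litters. In every WT comparison of these ages, litter and sex makeup changed with age and cannot be told apart from it. In WT fibroblast-like cells, 9 of the 10 genes passed the filter on low counts, 3 rose and 4 fell, in a comparison in which 31.9% of all genes passed an adjusted p of 0.05 (edgeR's quasi-likelihood test with Benjamini-Hochberg adjustment, as for every adjusted p). The median log2 fold change of the 9 was -0.25, and that of all genes was 0.00. Wif1 stood at 104 and 92.9 CPM at E14.5 and at 358 and 377 CPM at E16.5, a log2 fold change of 2.07 ± 0.18 (SE, adjusted p = 3.79e-06). Dkk1 went from 14.503 and 12.96 to 39.0 and 47.5 CPM (1.82 ± 0.15, adjusted p = 1.84e-06). Sfrp1 moved the other way, from 122 and 163 to 25.5 and 24.5 CPM (-2.34 ± 0.14, adjusted p = 1.73e-07), as did Sfrp2, from 706 and 928 to 259 and 260 CPM (-1.48 ± 0.14, adjusted p = 4.26e-06). For these 4 genes the ages did not overlap. Dkk2 fell from 61.7 and 82.5 to 29.6 and 32.4 CPM (adjusted p = 0.00059) and Frzb from 10.3 and 7.15 to 3.05 and 4.18 CPM (adjusted p = 0.00197). Dkkl1 also passed (adjusted p = 0.00466), at no more than 1.61 CPM in any of these libraries. Dkk3 and Sfrp4 did not pass, and Dkk4 was below the filter. At E14.5 the cluster led by C1qtnf3, Mfap4 and Tnmd was 13.7% and 16.3% of WT fibroblast-like cells, with 58.5 and 27.7 CPM of Frzb. Before thinning, Frzb was seen in 5.21% and 4.71% of WT fibroblast-like cells at E14.5 and in 2.07% and 2.69% at E16.5. In Grhl3-/- libraries the shares were 1.63% and 1.72%, then 2.09% and 2.63%. How far the makeup of the class entered the changes with age was not tested.

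**Figure D3:**
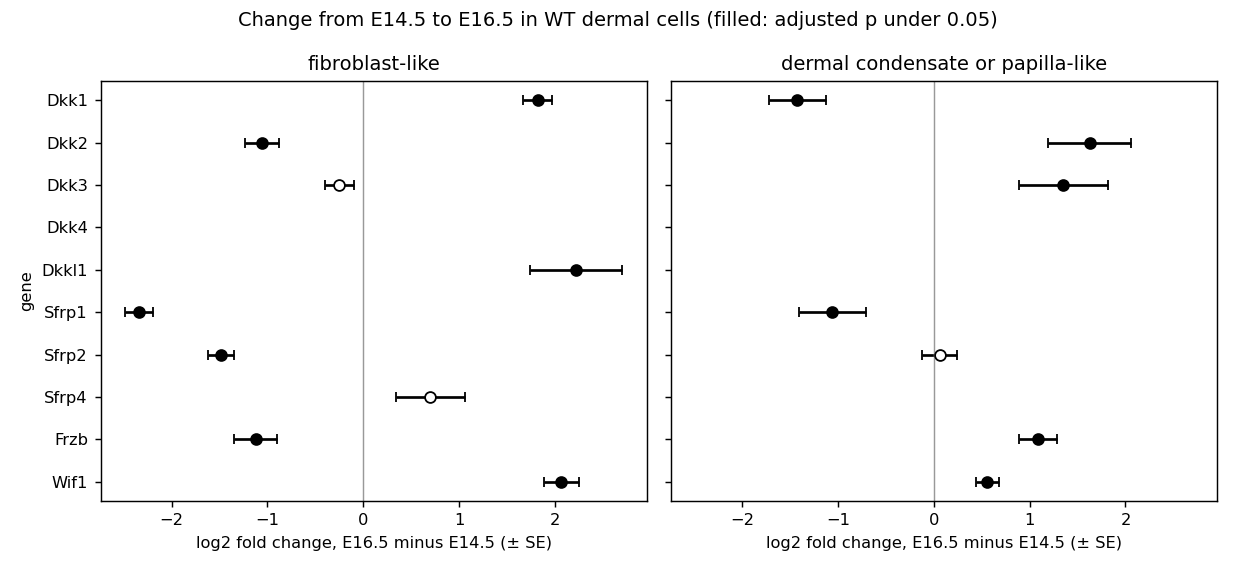
Log2 fold change (x axis) from E14.5 to E16.5 in WT fibroblast-like and dermal condensate or papilla-like cells, for each gene (rows), with bars of 1 SE; filled points passed an adjusted p of 0.05 and rows without a point were below the filter. Of the genes that passed in both panels, Dkk1, Dkk2 and Frzb have opposite signs, 1.82 and -1.42 for Dkk1. With a coarser clustering the condensate or papilla-like values of Dkk1 and Frzb changed sign.

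In condensate or papilla-like cells of WT skin, 4 of 7 tested members rose and 2 fell between E14.5 and E16.5, beside 19.7% of all genes called. Their median log2 fold change was 0.56 against -0.01 for all genes. Frzb rose from 33.7 and 32.9 to 78.4 and 69.6 CPM (1.09 ± 0.20, adjusted p = 0.000413) and Wif1 from 309 and 363 to 513 and 526 CPM (0.56 ± 0.12, adjusted p = 0.0014). Dkk1 fell from 55.2 and 48.8 to 18.9 and 22.2 CPM (-1.42 ± 0.30, adjusted p = 0.00133). The calls for Dkk2 (4.09 and 10.6 to 28.9 and 17.6 CPM, adjusted p = 0.00988), Dkk3 (adjusted p = 0.0426) and Sfrp1 (adjusted p = 0.0384) each ended when a single library was left out: E14.5 WT replicate 1 or E16.5 WT replicate 1 for Dkk2 and Dkk3 (adjusted p = 0.132 and 0.168 for Dkk2, 0.343 and 0.29 for Dkk3), and any of the 4 libraries for Sfrp1 (0.0788 to 0.193). These values rest on where the condensate was drawn, and their difference from the fibroblast-like changes was not tested. With a coarser clustering the class was wider and Dkk1 had a log2 fold change of 1.48 (adjusted p = 0.00284), Sfrp2 one of -1.41 in place of 0.06, and Frzb one of -0.45. Without integration of the libraries, Dkk1 (-0.67), Wif1 (0.13) and Frzb (0.43) did not pass.

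In the WT hair follicle-like class, Dkk4 fell to a small part of its first level. It stood at 1236 and 881 CPM in these cells at E14.5 and at 26.3 and 40.4 CPM at E16.5 (-5.02 ± 0.22, adjusted p = 6.42e-11). The class held 26 and 59 cells at E14.5 and 292 and 265 cells at E16.5. Over all cells of a library, Dkk4 went from 7.85 and 10.5 to 3.41 and 2.81 CPM. How far the makeup of the class entered the fall was not tested. Without integration, where the E14.5 class held 146 CPM, the fall was smaller and still passed. Of 5 members tested there, Sfrp1 also fell, from 31.9 and 40.7 to 9.76 and 9.18 CPM (adjusted p = 0.0245, from 0.0708 to 0.518 without any 1 of the 4 libraries), and none rose, beside 8.23% of all genes called. At P0 Dkk4 was down to 0.22 and 0.502 CPM (-6.34 from E16.5) and Wif1 to 5.60 and 7.84 from 88.3 and 79.0 CPM (-3.53), while Dkk3 (1.16) and Sfrp1 (1.10) rose, the latter losing its call without P0 WT replicate 1 or either E16.5 WT replicate (adjusted p = 0.064, 0.0862 and 0.116). The fall of Wif1 did not show in every part of the P0 follicle: the cluster led by Krt35 had 77.6 and 96.3 CPM in WT, and the class of the first P0 library, which entered no test, had 68.8 CPM of Wif1 and 7.25 CPM of Dkk4. That step joins whole skin to epidermis and, by Xist, 2 female to 2 male libraries, so that age, tissue and sex cannot be told apart, and 48.8% of all genes passed. In WT basal IFE-like cells from E14.5 to E16.5, 2 of 7 members rose and 3 fell (18.7% of all genes), among them Dkk4 from 54.6 and 35.7 to 13.6 and 5.90 CPM (-2.12), a call lost without E14.5 WT replicate 1 (adjusted p = 0.0829) or E16.5 WT replicate 2 (0.0778). Sfrp2 fell too (-2.33), with mast-like cells falling as given above, and Dkk3 rose (2.33, adjusted p = 0.221 without E14.5 WT replicate 2). Dkkl1 (0 at E14.5) and Sfrp1 (-0.97) lost their calls in 4 and in 3 of the 4 fits that left out a library. From E16.5 to P0, basal Dkk3 rose from 3.28 and 3.56 to 16.1 and 16.2 CPM (2.17), and Dkk2, Dkk4 and Wif1 fell (1 up and 3 down of 7, beside 60.5% of all genes). Basal levels at E16.5, 10.9 and 6.46 CPM of Wif1 and 1.64 and 0.936 CPM of Dkk2, lay below or among those of mast-like cells, at 23.6 and 38.6 CPM of Wif1 and 2.72 and 0.821 CPM of Dkk2. After thinning, Wif1 was seen in 2.24% and 1.26% of basal and 3.64% and 4.59% of mast-like cells, though mast-like cells were shallower (3949 and 4845.5 against 8590.5 and 8908.5 UMIs). The thinned Wif1 share of macrophage or Langerhans-like cells was 4.20% and 0.431% and that of endothelial-like cells 4.15% and 0.505%, above the basal share in replicate 1 and below it in replicate 2. Whether free RNA entered the basal values of Dkk2 and Wif1 was not tested.

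Differentiated IFE-like cells of WT skin gained Dkkl1 from E14.5 to E16.5, from 29.5 and 37.5 to 142 and 94.0 CPM (2.17, adjusted p = 0.035). The groups did not overlap, but the call was lost in each fit that left out 1 of the 4 libraries (adjusted p = 0.0657 to 0.162). Wif1 rose in the same cells from 0.484 and 0.915 to 11.3 and 6.80 CPM (3.89) and Sfrp2 fell (-1.75, adjusted p = 0.0779 and 0.069 without E14.5 WT replicate 2 or E16.5 WT replicate 2), so that 2 of 5 members rose and 1 fell, beside 29.4% of all genes. Other classes moved in the same direction: Wif1 in mast-like cells went from 1.26 and 3.97 to 23.6 and 38.6 CPM, with thinned shares at E16.5 of 3.64% and 4.59% against 1.54% and 1.04% in differentiated IFE-like cells. Sfrp2 in differentiated IFE-like cells, at 17.3 ± 5.31 and 4.12 ± 1.16 CPM, also lay below the mast-like levels given above. Whether free RNA entered these changes was not tested. From E16.5 to P0, Sfrp1 rose from 2.12 and 0.618 to 13.0005 and 16.3 CPM (3.62) and Dkk3 by 3.44, whereas Wif1 (-5.11) and Sfrp2 (-1.66) fell, beside 42.2% of all genes. Here too the step joins whole skin to epidermis and, by Xist, 2 female to 2 male libraries. Age, tissue and sex therefore cannot be told apart. The E16.5 levels of Wif1 and Sfrp2 lay below the mast-like levels, and whether free RNA entered their falls to P0 was not tested. The calls for Dkk3 and Sfrp2 were lost without P0 WT replicate 1 (adjusted p = 0.121 and 0.0579), for Dkk3 also without E16.5 WT replicate 2 (0.209) and for Sfrp2 without E16.5 WT replicate 1 (0.0721).

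Dkkl1 was lower in the differentiated epidermis of both Grhl3-/- libraries than in that of both WT libraries at each age, and the difference passed the test at P0. There, Dkkl1 stood at 161 and 148 CPM in WT and at 6.85 and 44.9 CPM in Grhl3-/- differentiated IFE-like cells (replicates 1 and 2), a log2 fold change of -2.67 ± 0.69 (adjusted p = 0.0162). It was the 1 of 5 tested members that passed, beside 26% of all genes. The level over all cells of a library was 19.98 and 21.8 CPM in WT, 17.7 CPM in the first P0 library and 1.27 and 2.74 CPM in Grhl3-/-. It also moves with the share of differentiated IFE-like cells, which were 9.69% of P0 cells in WT and 3.95% in Grhl3-/-. At E16.5 the class had 142 and 94.0 CPM in WT against 58.7 and 7.49 CPM (-1.75 ± 0.74, adjusted p = 0.234), and at E14.5 29.5 and 37.5 against 3.40 and 6.49 CPM (-2.62 ± 0.85, adjusted p = 0.252). None of the 5 tested members passed at E14.5 or E16.5, where 0.733% and 4.23% of all genes did. The genotype effect did not pass a test of difference between P0 and E16.5 (-0.91, adjusted p = 0.681, 2.66% of all genes called). After thinning to 2000 UMIs, Dkkl1 was seen in 0.639%, 5.79% and 4.59% of Grhl3-/- differentiated IFE-like cells at the 3 ages, against the WT shares above. The Grhl3-/- libraries differed at P0, with 1.06% in replicate 1 and 8.12% in replicate 2, against 13.2% and 11.6% in WT. Melanocyte-like cells at P0, which should lack it, gave shares of 0.2004% to 0.285% in WT and 0.105% to 0.118% in Grhl3-/- libraries.

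**Figure D4:**
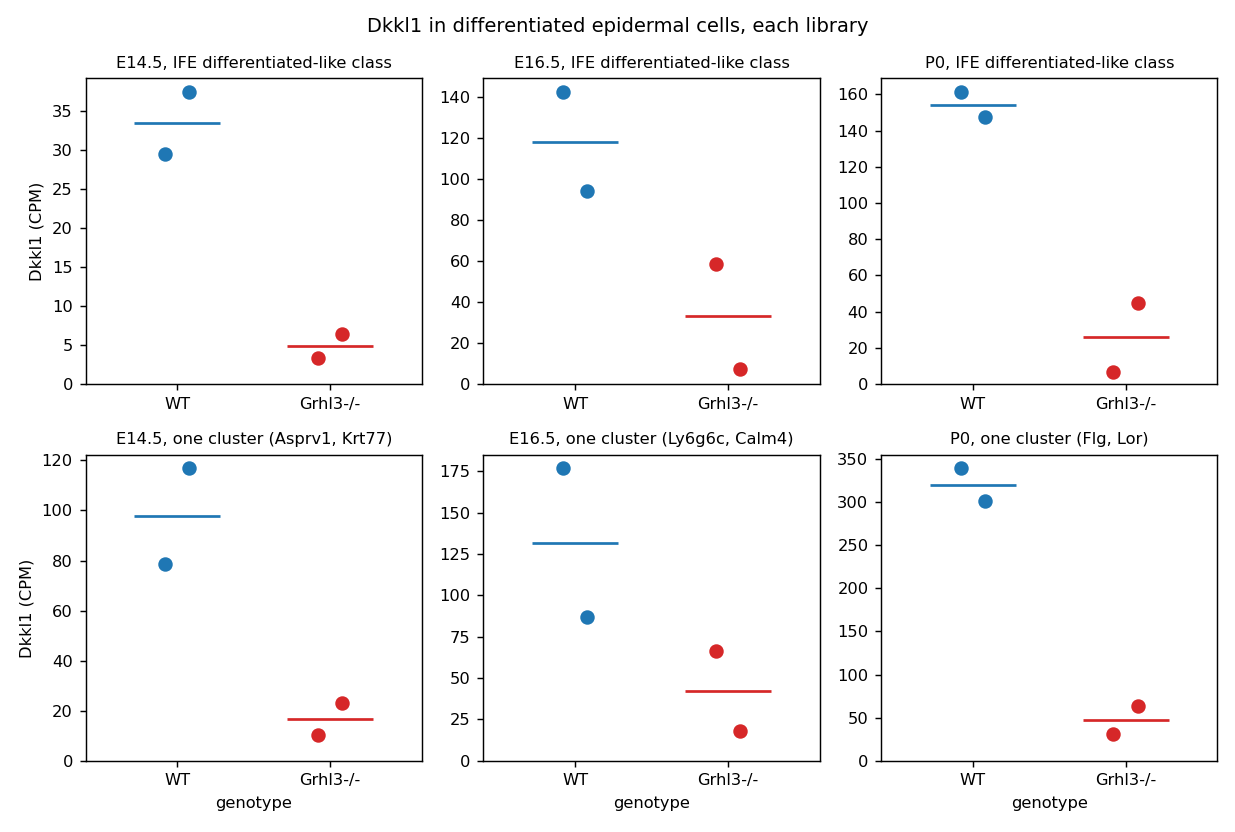
Dkkl1 (y axis, CPM, from 0; scales differ between panels) in each library by genotype, with a line at the mean of 2, for the whole differentiated IFE-like class (upper row) and for 1 cluster of it at each age (lower row). In all 6 panels both Grhl3-/- points lie below both WT points, for example 30.6 and 63.6 against 339 and 301 CPM in the P0 cluster led by Flg and Lor.

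What cells the class held differed between genotypes, and values within single clusters are therefore given beside it; these fits were added after the values were seen. In the P0 cluster led by Flg and Lor, genes of the granular layer, Dkkl1 was 339 and 301 CPM in WT (220 and 242 cells) and 30.6 and 63.6 CPM in Grhl3-/- (45 and 192 cells), a log2 fold change of -2.65 ± 0.32 (adjusted p = 1.82e-04, 17.4% of genes called). In the less mature P0 cluster led by Krt1 and Krt10 it was 9.43 and 10.5 against 0.858 and 1.05 CPM (-3.54 ± 0.52, adjusted p = 0.00166, 18.9% of genes called). The E14.5 cluster led by Krtdap and Krt1 that also held Asprv1 had 78.4 and 117 against 10.2 and 23.2 CPM (-2.31 ± 0.31, adjusted p = 0.00106, 3.55% of genes called), and the E16.5 cluster led by Krt1 and Ly6g6c had 177 and 86.9 against 66.5 and 18.3 CPM (-1.46 ± 0.48, adjusted p = 0.164, 2.33% of genes called). Dkkl1 was higher still in the most mature E16.5 cluster, led by Lor and late cornified envelope genes, at 642 and 456 CPM in 17 and 30 WT cells, and that cluster held 3 and 1 Grhl3-/- cells. The P0 call depended on how cells were assigned and on the fit. When libraries were clustered without integration, the Grhl3-/- class shrank to 15 and 163 cells with 93.9 and 87.7 CPM against 149 and 141 CPM, a difference of -0.43 that did not pass (adjusted p = 0.456). DESeq2 gave an adjusted p of 0.0668 for the class, and a fit of only the P0 libraries one of 0.0576 (-2.63).

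The genotype difference of Dkk4 had opposite signs at E14.5 and at the later ages. In hair follicle-like cells at E14.5 it was 583 and 403 CPM in Grhl3-/- against 1236 and 881 CPM in WT (-1.20 ± 0.19, adjusted p = 0.0655). The groups did not overlap, but no gene passed (0% of all genes; 565 had an unadjusted p under 0.05, and DESeq2 called 2, Dkk4 among them at an adjusted p of 0.0201), and none of the 5 tested members did. At E16.5 it was 75.2 and 63.5 CPM in Grhl3-/- against 26.3 and 40.4 CPM (1.03 ± 0.24, adjusted p = 0.228), again with none of 5 members called, beside 0.116% of all genes. At P0 it was 1.42 and 1.64 against 0.22 and 0.502 CPM (2.09 ± 0.40, adjusted p = 0.000589), a call that ended when the libraries were clustered without integration. The first P0 WT library, outside the test, lay above all 4 at 7.25 CPM (5.51 to 9.37, exact Poisson interval, counting error only), in a class drawn by its own clustering and made of clusters led by Shh and by Krt28 and Krt35. The genotype effect at E16.5 minus that at E14.5 was 2.23 ± 0.31 (adjusted p = 0.0119) and was the only gene called of all tested there (0.00968%). Leaving out E14.5 WT replicate 1, E14.5 Grhl3-/- replicate 2, E16.5 WT replicate 1 or either E16.5 Grhl3-/- library raised that adjusted p to between 0.0624 and 0.209. Without integration, the E14.5 follicle-like class of WT held 146 CPM of Dkk4, far from 1059 CPM. Over all cells of a library, Dkk4 was 4.36 and 8.19 CPM in Grhl3-/- against 7.85 and 10.5 CPM in WT at E14.5. At E16.5 it was 5.33 and 6.09 against 3.41 and 2.81 CPM. By Xist, sex also differed between genotypes at both embryonic ages, and its part was not tested.

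**Figure D5:**
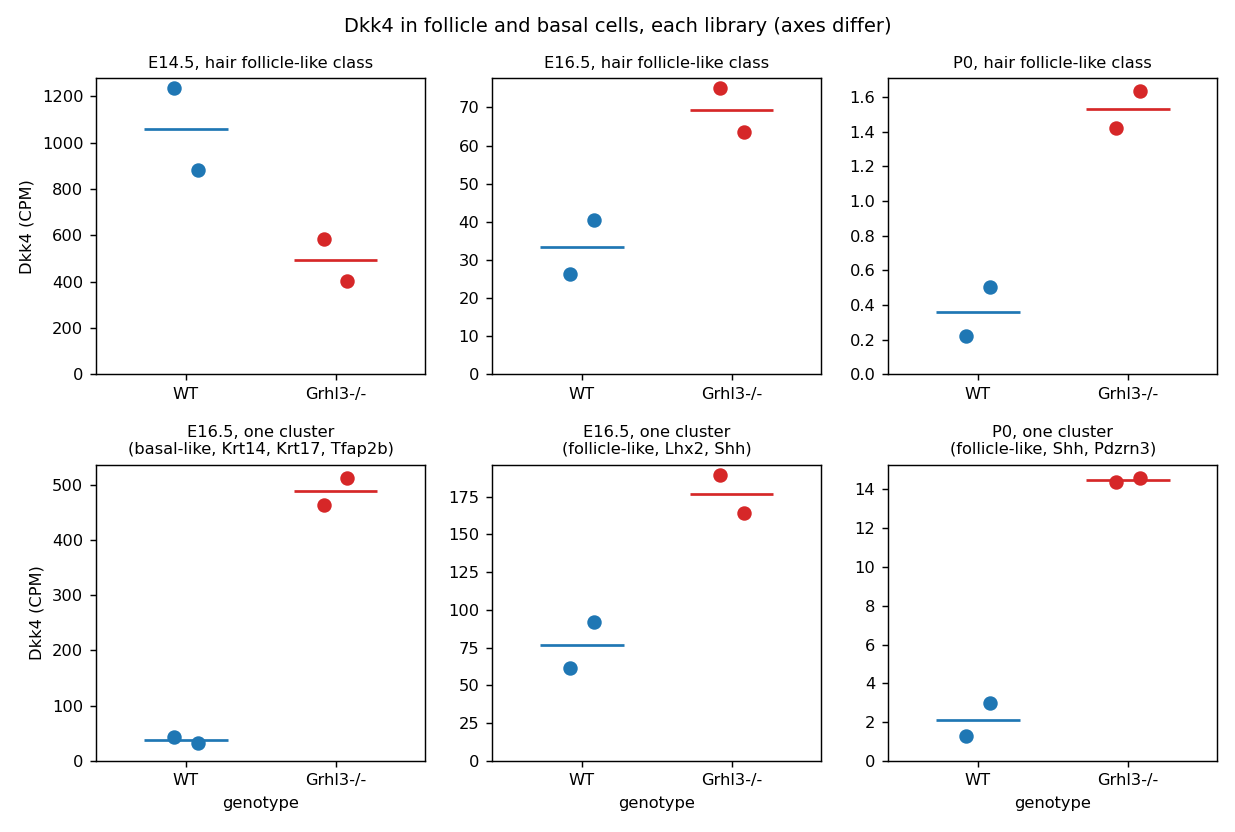
Dkk4 (y axis, CPM, from 0; scales differ between panels) in each library by genotype, with a line at the mean of 2, in hair follicle-like cells at each age (upper row) and in single clusters at E16.5 and P0 (lower row). The Grhl3-/- points lie below WT at E14.5 (583 and 403 against 1236 and 881 CPM) and above WT in the other 5 panels.

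In basal IFE-like cells at E16.5, Dkk4 was higher in both Grhl3-/- libraries than in both WT libraries. In the whole basal IFE-like class Dkk4 was 41.1 and 84.2 CPM in Grhl3-/- and 13.6 and 5.90 CPM in WT (2.64 ± 0.45, adjusted p = 0.0172), the 1 of 7 tested members that passed, beside 0.525% of all genes. The call was lost without WT replicate 2 (2.09, adjusted p = 0.221), without Grhl3-/- replicate 2 (2.03, adjusted p = 0.22) and with DESeq2 (adjusted p = 0.331). One cluster of the class, led by Krt14, Krt17 and Lmo1, was fitted alone after the values were seen, and the class was fitted without it. Because the values had been seen, neither fit is an independent test of Dkk4. That cluster had 464 and 512 CPM in 39 and 51 Grhl3-/- cells against 42.7 and 33.1 CPM in 112 and 120 WT cells (3.63 ± 0.19, adjusted p = 2.87e-10, 0.921% of genes called). Without that cluster the class difference was 0.51 (adjusted p = 0.833). In the follicle-like cluster led by Lhx2 and Shh the values at E16.5 were 190 and 164 CPM in Grhl3-/- against 61.4 and 91.7 CPM. Whether the cells of the cluster led by Krt14, Krt17 and Lmo1 belong to the interfollicular epidermis or to the follicle was not tested. At E14.5 basal Dkk4 averaged 15.4 CPM in Grhl3-/- and 45.2 CPM in WT (adjusted p = 1), and none of 7 tested members passed, beside 0.00795% of all genes.

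In the Grhl3-/- dermis, several inhibitors differed at E14.5 although Grhl3 is an epidermal gene. Of 9 members tested in fibroblast-like cells, 1 rose and 3 fell, beside 3.87% of all genes, and the median log2 fold change of the 9 was -0.37 against 0.00 for all genes. Sfrp2 was 471 and 370 CPM against 706 and 928 CPM in WT (-0.96 ± 0.13, adjusted p = 0.00209). Dkk3 was 8.04 and 6.57 against 13.7 and 16.1 CPM (-1.04 ± 0.16, adjusted p = 0.00334) and Frzb 2.55 and 2.44 against 10.3 and 7.15 CPM (-1.81 ± 0.23, adjusted p = 0.00116). Dkk1 was 18.9 and 24.0 against 14.503 and 12.96 CPM (0.64 ± 0.15, adjusted p = 0.0305), a call lost without WT replicate 2 (0.52, adjusted p = 0.178) or Grhl3-/- replicate 2 (0.46, adjusted p = 0.244). Wif1 (0.46, adjusted p = 0.192) and Sfrp4 (adjusted p = 0.157) did not pass, though Sfrp4 did without WT replicate 1 (-1.50, adjusted p = 0.0417) or Grhl3-/- replicate 1 (-2.00, adjusted p = 0.0191). The makeup of the class moved with genotype: the cluster led by C1qtnf3, Mfap4 and Tnmd was 5.58% and 4.12% of fibroblast-like cells in Grhl3-/- and 13.7% and 16.3% in WT. Col2a1, a cartilage collagen, was 0.497 and 0.574 CPM in the Grhl3-/- class and 50.0 and 30.6 CPM in WT. With that cluster left out, Sfrp2 (-0.84, adjusted p = 0.0102) and Dkk3 (-0.66, adjusted p = 0.0448) still passed, and Frzb (-0.75, adjusted p = 0.0911) and Dkk1 (0.55, adjusted p = 0.0611) did not (2.3% of genes called). How far the depth of dissection or the sex of the embryos entered these values was not tested.

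Sfrp2 was also lower in Grhl3-/- mast-like cells at E14.5, at 16.1 ± 1.59 against 39.7 ± 0.0291 CPM, cells that should lack it. In condensate or papilla-like cells it was 53.1 and 56.8 against 112 and 80.6 CPM (-0.86, adjusted p = 0.112, and 0.0208 without WT replicate 2). None of the 7 members tested in that class passed at E14.5 (0.145% of all genes) or at E16.5 (0.424%), where Dkk1 passed without Grhl3-/- replicate 2 (1.39, adjusted p = 0.037). By E16.5 Sfrp2 in fibroblast-like cells did not pass, and 2 of 9 members did, beside 1.13% of all genes. Sfrp1 was 39.0 and 40.8 CPM in Grhl3-/- and 25.5 and 24.5 CPM in WT (0.68 ± 0.14, adjusted p = 0.0382), a call lost when any of the 4 libraries was left out (adjusted p = 0.137 to 0.476). Dkkl1 was 0.319 and 0.0708 against 1.35 and 1.61 CPM (adjusted p = 0.0285, and 0.14 to 0.316 without either WT library or Grhl3-/- replicate 2). At E16.5 Dkkl1 had a like low level in most WT classes, such as 2.22 CPM in mast-like and 2.18 CPM in red blood-like cells, and whether free RNA entered the fibroblast values was not tested.

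In the P0 follicle the Grhl3-/- epidermis had less Dkk3 and Sfrp2 and more Dkk4 and Wif1. Clustering without integration ended the calls for Dkk4 (1.54, adjusted p = 0.0581) and Wif1 (0.43, adjusted p = 0.189). Of 5 members tested in hair follicle-like cells, 2 rose and 2 fell, beside 35.5% of all genes, with a median of 0.10 against -0.02 for all genes. Dkk3 was 12.7 and 11.8 CPM in Grhl3-/- and 28.5 and 20.1 CPM in WT (-0.91 ± 0.19, adjusted p = 0.00133). Sfrp2 was 5.80 and 7.28 against 11.9 and 17.1 CPM (-1.07 ± 0.21, adjusted p = 0.000772). Wif1 was 8.23 and 13.98 against 5.60 and 7.84 CPM (0.80 ± 0.26, adjusted p = 0.0253), a call lost without WT replicate 1 (0.58, adjusted p = 0.151) or Grhl3-/- replicate 2 (0.33, adjusted p = 0.436), with DESeq2 (adjusted p = 0.0987) and at the 5% mitochondrial limit (adjusted p = 0.0542). In the pair of clusters led by Shh, a signal of follicle matrix cells, all 4 passed as well: Dkk3 -0.81, Sfrp2 -1.02, Wif1 1.08 and Dkk4 2.40 (20.1% of genes called). The smaller of the pair held 14.4 and 14.6 CPM of Dkk4 in Grhl3-/- and 1.27 and 2.99 CPM in WT. The cluster led by Krt35, of the hair shaft, had 45.7 and 80.6 CPM of Wif1 in Grhl3-/- and 77.6 and 96.3 CPM in WT. In P0 basal IFE-like cells 1 of 7 members passed, beside 37% of all genes: Sfrp2, at 0.886 and 2.11 CPM against 4.45 and 6.94 CPM (-1.98 ± 0.35, adjusted p = 0.000662). Sfrp2 was likewise lower in Grhl3-/- melanocyte-like cells (3.93 ± 0.537 against 7.20 ± 2.76 CPM) and T cell-like cells (0.799 ± 1.13 against 3.60 ± 1.72 CPM). Whether free RNA set these low values was not tested.

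Other genes of the pathway, from lists of 16 antagonists of other kinds, 25 ligands and their agonists, 19 receptors and co-receptors and 17 effectors and targets, were compared in the same fits. Between E14.5 and E16.5 in WT fibroblast-like cells, 6 of 16 other antagonists rose and 4 fell, beside 31.9% of all genes, with Sost at 6.13, Sfrp5 at -1.15 and Igfbp4 at -1.97, and 2 of 19 ligands and agonists rose and 9 fell, with Rspo2 at -4.25. Of 19 receptors 3 rose and 2 fell, and of 17 effectors and targets 6 rose and 2 fell, among them Lef1 (1.37), Tcf7 (1.52) and Sp5 (-1.70). In the WT condensate or papilla-like cells, where 19.7% of all genes passed, 5 of 12 other antagonists rose and 1 fell (Notum 2.21, Nkd2 1.38, Sfrp5 -3.61), 5 of 9 ligands and agonists rose and 2 fell (Rspo3 2.23), 3 of 10 receptors rose and 1 fell (Lgr4 1.82) and 6 of 16 effectors and targets rose and 2 fell (Tcf7 2.12). With genotype, no gene of these lists passed in basal IFE-like, hair follicle-like or condensate or papilla-like cells at E14.5 and E16.5, and 1 passed in differentiated IFE-like cells at E16.5, the Wnt target Bambi (-1.88, adjusted p = 0.0182, beside 4.23% of all genes). In E14.5 fibroblast-like cells, where 3.87% of all genes passed, 3 of 16 other antagonists rose and 1 fell, among them Sfrp5 (0.71), the feedback inhibitor Nkd1 (0.55) and Igfbp4 (-0.71). There 2 of 19 ligands and agonists rose and 1 fell (Rspo1 0.79, Wnt6 0.48, Rspo2 -1.96), 1 of 19 receptors rose and 2 fell (Fzd1 0.48, Fzd8 -1.17, Fzd9 -2.70) and 3 of 17 effectors and targets rose and 1 fell (Tcf7 0.67, Sp5 0.64, Lef1 0.53). At P0 the feedback target Axin2 was lower in Grhl3-/- cells of all 3 epidermal classes, by -1.53 in basal, -1.53 in differentiated IFE-like and -1.44 in hair follicle-like cells. In P0 basal cells 6 of 18 ligands and agonists rose, among them Wnt5a (1.78), Wnt3a (1.63) and Wnt6 (0.61), and 6 of 17 receptors fell, among them Fzd6 (-0.85), Fzd3 (-0.66) and Lgr6 (-0.52). Of 14 other antagonists there 1 rose and 3 fell, and of 17 effectors and targets 3 rose and 5 fell, with Myc at -1.21. The Dickkopf receptor gene Kremen2 rose in basal (0.96) and hair follicle-like cells (0.49). In P0 differentiated IFE-like cells 5 of 12 ligands and agonists rose and 1 fell, with Wnt7a (3.95), Wnt16 (2.16) and Wnt10a (2.04) among those that rose, and 4 of 16 effectors and targets rose and 1 fell, with Lef1 at 1.86. Of 11 other antagonists 2 rose and 2 fell, and of 14 receptors 1 fell, Fzd10 (-1.04). In P0 hair follicle-like cells 3 of 13 ligands and agonists rose and 2 fell (Wnt5a 1.13, Wls -0.51, Wnt16 -1.52) and 4 of 13 receptors fell, beside 2 up and 1 down of 13 other antagonists and 4 up and 3 down of 17 effectors and targets. These P0 counts stand beside the 37%, 26% and 35.5% of all genes called in the 3 classes.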

How the data were processed

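The authors prepared 13 libraries with 10x Genomics 3' chemistry and deposited, for each, a matrix of raw UMI counts per gene and cell barcode, made with Cell Ranger on mm10 (version 1.3.1 in the submitters' processing notes). Of 97363 barcodes, 86507 cells passed the limits in the study's methods, 600 to 4800 genes in embryonic and 900 to 7700 genes in P0 libraries and at most 10% mitochondrial UMIs. Doublets were left in, and an alternative removed those with the highest scores of Scrublet (scanpy 1.11.5), in a share that grew with the cells of a library. The cells of each age were integrated and clustered with Seurat 5.3.0 (R 4.3.3) at resolution 1.0 on 3000 variable genes, from which the 10 genes and all listed Wnt genes had been taken out. Classes were named from fixed markers, and epithelial cells were clustered again.

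UMI counts were summed per class and library, since cells are not replicates, and tested with edgeR 4.0.16 (quasi-likelihood test, filterByExpr, TMM), 12 libraries in a fit (8 for the condensate, which was missing at P0), with a group term and Benjamini-Hochberg adjustment over all genes tested, threshold 0.05. The study describes both libraries of a group as biological replicates from littermates. The p-values therefore measure the spread between these animals and their libraries. They do not measure the spread between litters, which differ between ages. CPM values were computed from the deposited counts, and SDs are over libraries. In each library the limit that a count of 0 allows was set at 3 UMIs, and all such limits cover counting error only. Alternatives were DESeq2 1.42.0, RLE size factors, no filter on low counts, only the libraries compared, a replicate block, each library left out, no integration, resolution 0.5, a mitochondrial limit of 5% and doublets removed. Fits within or without single clusters were added after the values were seen.

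The rule for named genes covered all 10 members in every comparison, where members that did not pass are given in part by their count alone, genes of the other Wnt lists only where they passed (at most 3 a list and comparison, the smallest adjusted p first), and the 3 most similar genes of each member. The members, lists and markers were chosen with earlier results of these data known. Promoters and gene places came from RefSeq (GRCm38.p6) and GENCODE M21.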

Additional observations from a re-analysis of the deposited data

Results flagged for a closer look

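Dkk4 in hair follicle-like cells was singled out because its difference between genotypes was itself different at the 2 embryonic ages. The log2 difference of Grhl3-/- from WT at E16.5 minus that at E14.5 was 2.23 (edgeR's quasi-likelihood test, adjusted p = 0.0119), from values of 583 and 403 against 1236 and 881 CPM at E14.5 and of 75.2 and 63.5 against 26.3 and 40.4 CPM at E16.5. Both Grhl3-/- libraries lay below both WT libraries at E14.5 and above them at E16.5. Before thinning, Dkk4 was seen in 38.5% and 39.0% of WT and 35.5% and 33.0% of Grhl3-/- cells of the class at E14.5. At E16.5 it was seen in 7.19% and 6.79% against 9.72% and 6.95%, which overlap. After thinning the shares were 30.8% and 28.8% against 19.4% and 24.3%, then 3.42% and 2.64% against 5.56% and 4.28%, and did not overlap. At E14.5 the class held 26 and 59 WT and 31 and 115 Grhl3-/- cells. The call was lost without E14.5 WT replicate 1 (2.00, adjusted p = 0.133), E14.5 Grhl3-/- replicate 2 (1.92, 0.209), E16.5 WT replicate 1 (1.96, 0.134), E16.5 Grhl3-/- replicate 1 (2.10, 0.079) or E16.5 Grhl3-/- replicate 2 (2.32, 0.0624).

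Wif1 stood at 68.8 CPM in the hair follicle-like class of the first P0 WT library, which entered no test. The limit that a count of 0 allows in that class was 0.375 CPM, and the counting interval of the value was 63.1 to 74.8 CPM (95%, exact Poisson, counting error only). The replicated P0 WT libraries had 5.60 and 7.84 CPM in their class of that name. In the first library the class consisted of clusters led by Shh and by Krt28 and Krt35, whereas the class of the replicated libraries also held clusters led by Sox9 and Tbx1. The first library was clustered by itself, so that its class and theirs were not drawn together. Groups of 2 libraries were too small to look for single libraries that stand apart.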

How the results depend on the processing

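The 49 calls of members were recomputed under 645 alternatives: 545 kept direction and call, 98 kept direction only and 2 turned, and 24 calls held under every alternative run. The 2 that turned were the log2 changes from E14.5 to E16.5 in WT condensate or papilla-like cells at resolution 0.5, to 1.48 for Dkk1 and -0.45 for Frzb, and Sfrp2, not called at first, also turned, to -1.41. The number of members called moved by more than 1.5 times in these cases. With DESeq2 it was 1 in the E14.5 follicle, 0 in E16.5 basal and in P0 differentiated cells, 2 for the WT basal change to E16.5 and 3 for that of the condensate. With no filter on low counts it was 1 in E14.5 basal, differentiated, follicle and condensate cells and in E16.5 differentiated and follicle cells, 4 in E16.5 fibroblasts, 3 in P0 basal and in P0 differentiated cells, and 2 for the difference of the P0 and E16.5 effects. Only the libraries compared gave 1 in E14.5 basal, E14.5 differentiated and E16.5 follicle cells and 0 in P0 differentiated cells. Without integration it was 1 in E14.5 and in E16.5 differentiated cells, 2 in P0 basal and P0 follicle cells, and 2 for the WT condensate and for the WT step to P0 of differentiated cells. Resolution 0.5 gave 1 in the E16.5 condensate and 3 in P0 differentiated cells, in the WT basal change and in the WT condensate, the 5% mitochondrial limit gave 2 in P0 differentiated cells, and removing doublets 3 for the WT basal change. Cluster fits gave 1 (E14.5 differentiated), 2 (E14.5 fibroblasts without the cluster led by C1qtnf3 and Mfap4) and 0 (E16.5 basal without the cluster led by Krt14, Krt17 and Lmo1). The thinned share of Dkkl1, 12.4% in P0 WT, was 4.52% at 2 or more UMIs and 31.3% without thinning.

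Leaving out 1 library gave 0 to 1 calls in the E14.5 and E16.5 condensate, E16.5 basal cells, E16.5 fibroblasts and the follicle difference of effects. It gave 3 to 5 in E14.5 fibroblasts, 1 to 3 in P0 basal and P0 differentiated cells, 3 to 4 in the P0 follicle, 2 to 3 for the WT basal change, 1 to 2 for WT differentiated and follicle cells, 3 to 5 for the WT condensate and 2 to 4 for the WT step to P0 of differentiated cells. Over all genes, the E14.5 fibroblast count of 575 ranged from 182 (without Grhl3-/- replicate 2) to 1396 (no filter), the E14.5 differentiated count of 80 from 7 to 915, the E16.5 fibroblast count of 168 from 53 to 560, and the P0 differentiated count of 2836 from 1213 to 4200. The causes were not tested.

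Replicate numbers did not pair the libraries: over 14 comparisons of a class and age, same-numbered deviations correlated at -0.139 to 0.0285. With the replicate number as a block, 39 of the 49 calls held. The block gave 1 call in the E14.5 follicle (Dkk4, adjusted p = 0.0178) and condensate (Sfrp2, adjusted p = 0.0229), 0 in E16.5 fibroblasts, 3 for the WT basal change and 2 for the WT step to P0 of differentiated cells.

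The E14.5 WT follicle-like class held 26 and 59 cells, so that a member without a count over both libraries, such as Dkk1, could reach 3.82 CPM (3 UMIs, counting error only).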
